A study of Homo sapiens with 12 samples.

Results

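Regions of U-937 chromatin that carried an H3K4me2 peak after each of 3 drug treatments and none after vehicle are described here. They were selected on the peak calls themselves. Peaks of the 4 deposited lists that overlapped or touched were joined into regions, and those in which ATRA, Corin and ATRA+Corin all had a peak while DMSO had none became members. The rule found 4144 members among 84577 regions (4.9%), and among 33926 regions without a DMSO peak they made up 12.2%. Since the rule used these calls, their number and the peak values inside them are a description without a test.

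U-937 is an established human cell line with monocytic features, used here as a model of acute myeloid leukaemia, and all groups come from this 1 line. The cells received DMSO vehicle, 0.1 µM ATRA (all-trans retinoic acid), 0.1 µM Corin or both drugs at 0.1 µM each for 24 h. Each treatment had 2 H3K4me2 libraries and 1 input library, and the authors deposited 1 pooled peak list per treatment, so no spread between replicates was available. No p-value is given, and all intervals cover counting error only.

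Dimethylation of lysine 4 on histone H3 (H3K4me2) marks enhancers and the flanks of active promoters. The demethylase LSD1, also called KDM1A, removes it as part of the CoREST corepressor complex, which also holds histone deacetylases, and Corin is a dual inhibitor of the LSD1 and deacetylase activities of that complex. ATRA binds the retinoic acid receptors, which pair with RXR on DNA, exchange corepressors for coactivators and drive myeloid differentiation programmes. Interferon regulatory factors (IRF), AP-1 and PU.1 are transcription factors that act at enhancers of monocytic cells.

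The stretches printed next are from the hg38 reference, plus strand, and are named by the nearest protein-coding gene. They are shown because they lie in members on which the later paragraphs turn: members with a match to the IRF motif GAAANNGAA, to the AP-1 motif TGANTCA or to the PU.1 motif GAGGAAGT near the summit, and the strongest member. Capitals mark the motif match on either strand, and in the BCORL1 stretch each CpG. A match describes the letters and does not show that a factor was bound.
CXCL10 member, IRF match, chr4:76023660-76023768: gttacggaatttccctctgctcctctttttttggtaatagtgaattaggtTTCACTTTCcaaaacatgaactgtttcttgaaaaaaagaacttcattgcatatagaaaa
CXCL10 member, IRF match, chr4:76020055-76020163: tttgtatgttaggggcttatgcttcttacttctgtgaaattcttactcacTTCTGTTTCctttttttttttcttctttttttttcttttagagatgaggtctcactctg
RLF member, IRF match, chr1:40144119-40144227: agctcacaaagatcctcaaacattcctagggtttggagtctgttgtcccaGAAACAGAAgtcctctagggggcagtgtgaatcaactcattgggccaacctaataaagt
DIPK2B member, IRF match, chrX:45446498-45446606: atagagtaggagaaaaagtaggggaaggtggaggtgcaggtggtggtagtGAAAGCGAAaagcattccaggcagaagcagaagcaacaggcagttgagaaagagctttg
FOLR3 member, AP-1 match, chr11:72132965-72133071: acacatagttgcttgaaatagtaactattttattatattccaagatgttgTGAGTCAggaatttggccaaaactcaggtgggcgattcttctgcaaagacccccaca
BCL2 member, AP-1 match, chr18:63303216-63303322: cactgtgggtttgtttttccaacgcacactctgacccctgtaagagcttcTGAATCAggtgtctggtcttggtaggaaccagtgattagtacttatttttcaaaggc
BCL2 member, AP-1 match, chr18:63300188-63300294: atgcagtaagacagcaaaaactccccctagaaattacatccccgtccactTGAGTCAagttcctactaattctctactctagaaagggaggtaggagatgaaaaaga
DHRS9 member, PU.1 match, chr2:169080458-169080565: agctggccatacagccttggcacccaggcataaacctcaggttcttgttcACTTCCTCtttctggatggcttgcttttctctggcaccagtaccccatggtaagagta
BCORL1 member, CpG, chrX:129982162-129982262: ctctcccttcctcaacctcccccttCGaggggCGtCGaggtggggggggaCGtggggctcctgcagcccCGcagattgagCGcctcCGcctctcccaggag

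The first CXCL10 stretch lies in a member over the start site of CXCL10, a chemokine induced by interferons, and the edge of the match nearest the start site is at position -213. The second CXCL10 stretch comes from a member 2663 bases downstream of the start site, in an intron of the overlapping gene ART3. The RLF, DIPK2B and FOLR3 stretches lie outside the annotated protein-coding and lncRNA genes used here. Those at BCL2, which encodes an inhibitor of apoptosis, lie in an intron of that gene.

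Peaks in members were weaker than those of regions present in all 4 lists. Whole H3K4me2 fragments at the summits were recovered from the deposited fold enrichment and −log10 p. The ATRA peaks of members held 10 to 181 fragments with a median of 23. The Corin peaks held 11 to 110 with a median of 24, and the ATRA+Corin peaks held 13 to 154 with a median of 36. In regions of all 4 lists the DMSO median was 58, the ATRA median 74, the Corin median 62 and the combination's 86. A peak list gives no value where no peak was called, so the DMSO signal inside members was not analysed here. For reference, 68 members (1.64%) reached in each drug list the median of 39 fragments of the DMSO list.

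**Figure D1:**
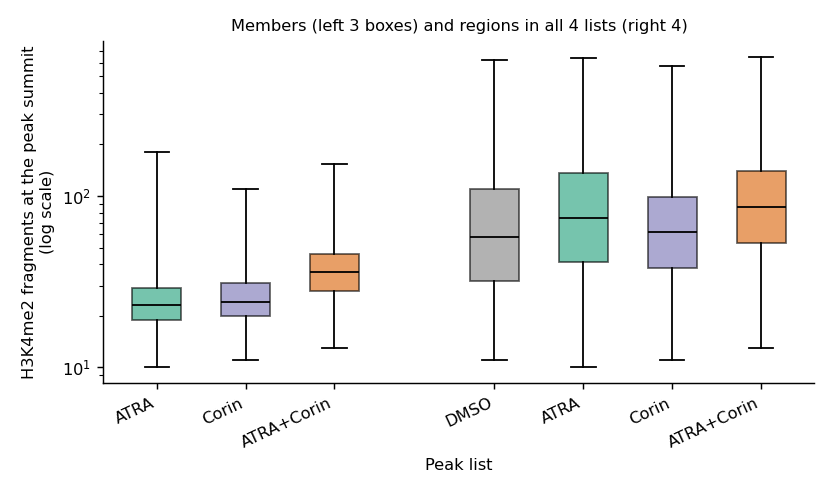
H3K4me2 fragments at peak summits (log scale) for the 3 drug lists in the members and for the 4 lists in regions present in all of them. Boxes span the quartiles with the median as a line, and whiskers reach the lowest and highest recovered value (peaks too strong to be solved are left out); the member medians of 23, 24 and 36 lie below the 4 medians of the regions in all lists.

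The ATRA+Corin list held the strongest peak in most members. The background behind the peaks differed between lists, standing at 1.02 times the DMSO level in ATRA, 1.10 in Corin and 1.20 in the combination. After scaling to the DMSO background, the medians were 22.6, 21.9 and 30.0 fragments, and ATRA+Corin was the highest in 2850 members (68.8%), ATRA in 809 (19.5%) and Corin in 485 (11.7%). By the deposited fold enrichment, which divides by the local background, the combination was the highest in 2410 members (58.2%), ATRA in 964 (23.3%) and Corin in 770 (18.6%). Fragments given for single members are neither scaled nor divided by that background, so the highest count need not be the highest fold. The ATRA+Corin peaks also covered more bases than those of either single drug in 2661 members (64.2%), with median widths of 715 bases against 420 for ATRA and 512 for Corin. Across members, the log2 fragments of Corin and ATRA+Corin had a Pearson correlation of 0.64, those of ATRA and ATRA+Corin 0.47, and those of ATRA and Corin 0.31. These correlations are descriptions over 4144 members and the 3 values of a member share its locus.

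The 3 drug peaks of a member lay close together, which the rule favours because it joined only peaks that overlap or touch. The values here are therefore a description. In 4030 members (97.2%) at least 1 base lay under a peak of all 3 drug lists, and the median shared length was 289 bases. The summits of the ATRA and Corin peaks lay a median of 70 bases apart, those of ATRA and ATRA+Corin 54 and those of Corin and ATRA+Corin 61. In regions of all 4 lists the same distances were 54, 43 and 44 bases. Summits of ATRA and Corin within 200 bases of each other were found in 73.9% of members.

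The member with the strongest peaks lay beside BCORL1, which encodes a transcriptional corepressor related to BCOR. It spanned chrX:129981026-129982426, 183 bases upstream of the nearest basic start site, while 2 annotated BCORL1 transcripts outside the basic set begin inside it. Its summits held 181 fragments after ATRA, 110 after Corin and 154 after the combination, the highest ATRA, Corin and ATRA+Corin values of all members, and the nearest DMSO peak was 2575 bases away. The second was at ERCC6L2, which encodes a helicase-like protein of DNA repair (chr9:95873564-95875469), with 93, 69 and 113 fragments in the same order of lists and no DMSO peak within 133300 bases.

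These 2 members need a limit stated beside them. The DMSO peaks are numbered up to 76171, and 10999 of these numbers (14.4%) do not occur in the list. The list is ordered by strength within its numbering, so the −log10 p of an absent number can be interpolated: it was under 5 for 83.3% and at 20 or above for 14. Where those calls lay is unknown, so a member may coincide with one of them.

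The next strongest members lay near genes of varied roles. The member near CP, encoding the copper-carrying ferroxidase ceruloplasmin (chr3:149245142-149246384, 23312 bases from the start site), held 57 fragments after ATRA, 61 after Corin and 77 after the combination. That in an intron of PLCB1, a phospholipase C gene (chr20:8399545-8401023), held 52, 57 and 66. Their fold enrichments were 12.8, 9.47 and 10.5 near CP and 8.92, 9.52 and 9.06 in PLCB1. The member 1813 bases from FOLR3, a folate receptor gene of myeloid cells (chr11:72132199-72133911), held 44, 47 and 100, so that the combination stood well above both single drugs.

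The combination was likewise the highest near RLF, a zinc finger protein gene (chr1:40143764-40144461; 45, 52 and 101). Near FBXW12, an F-box protein gene (chr3:48396736-48398101), it had the most fragments, with 57, 56 and 102, but its local background was higher too and the deposited fold enrichments were 9.92, 8.09 and 8.52. The member near UPB1, an enzyme gene of pyrimidine breakdown (chr22:24473588-24474479), showed no such order, with 52, 54 and 49 fragments. RACGAP1, encoding a regulator of cytokinesis, had a member 235 bases from its start site (chr12:50025730-50026414; 47, 45 and 56), which lay only 272 bases from a DMSO peak. The member 12098 bases from AIPL1, a photoreceptor chaperone gene, held 42, 60 and 80, with fold enrichments of 9.84, 13.1 and 9.40.

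**Figure D2:**
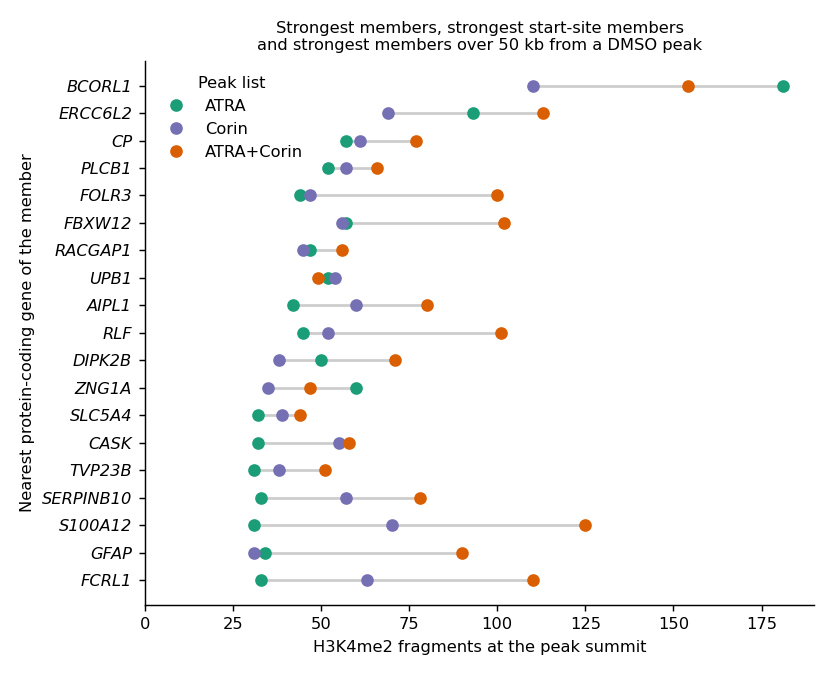
H3K4me2 fragments at the summit in the ATRA, Corin and ATRA+Corin lists for the 10 strongest members, the 10 strongest within 1 kb of a protein-coding start site and the 3 strongest over 50 kb from a DMSO peak, with the overlap counted once, labelled by the nearest protein-coding gene and ordered by the weakest of the 3 peaks. BCORL1 is highest in ATRA at 181, whereas S100A12 spreads from 31 in ATRA to 125 in ATRA+Corin.

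Members were rare at start sites. Of 4144 members, 270 (6.52%, 95% Wilson interval 5.80 to 7.31) lay within 1 kb of an annotated start site, against 37.9% of the regions in all 4 lists (member difference -31.4 percentage points, Newcombe -32.3 to -30.5). A further 8.33% overlapped an exon, 49.4% lay in introns and 35.8% outside genes. The share was slightly lower in the other patterns without a DMSO peak, at 5.39% for Corin and ATRA+Corin only (member difference 1.13, 0.20 to 2.08), 5.11% for ATRA and ATRA+Corin only (1.40, 0.30 to 2.48) and 4.51% for ATRA+Corin only (2.01, 1.21 to 2.87). Whole regions were scored, so wider ones lie near a start site more easily. Median widths were 834 bases in members and 1818 in regions of all 4 lists. They were 602 in Corin and ATRA+Corin only, 544 in ATRA and ATRA+Corin only and 293 in ATRA+Corin only. The part of width in these differences was not tested. Only 148 members lay near a protein-coding start site, and 47 protein-coding and 50 lncRNA genes had a start site inside a member.

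**Figure D3:**
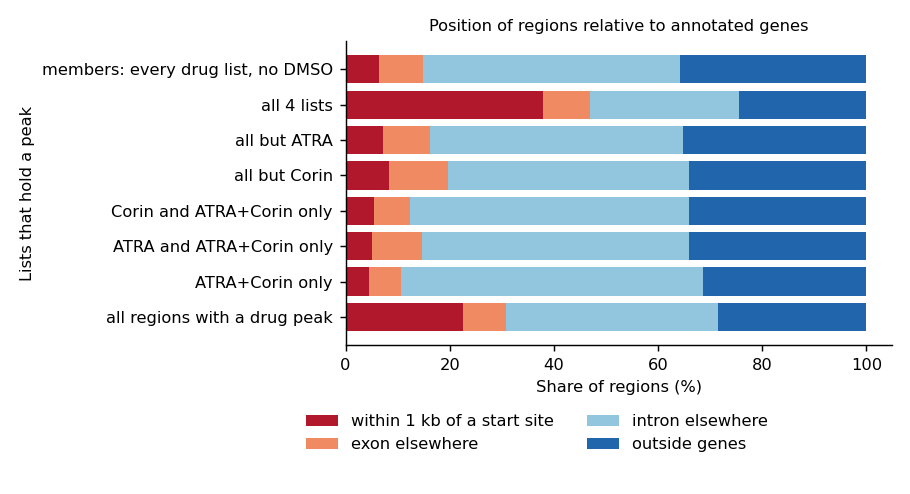
Share of regions (%) within 1 kb of a start site, in an exon, in an intron or outside genes, by the lists that hold a peak. The members, in the top bar, had 6.52% near start sites, whereas regions in all 4 lists had 37.9%.

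Among the strongest start-site members, 5 of 10 covered the start site itself. S100A12, a calcium-binding protein gene of granulocytes and monocytes (chr1:153374065-153376703), had 31 fragments after ATRA, 70 after Corin and 125 after the combination. FCRL1, an Fc receptor-like gene of B cells (chr1:157818053-157820367), had 33, 63 and 110. GFAP, the astrocyte intermediate filament gene, had 34, 31 and 90, SERPINB10, a serine protease inhibitor gene, had 33, 57 and 78, and CASK, a membrane scaffold kinase gene, had 32, 55 and 58. In all 5 the combination was the highest, and in 4 of them Corin exceeded ATRA.

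The remaining 2 start-site members behaved differently from each other. The member at ZNG1A, a zinc chaperone gene (chr9:178234-178552), was highest after ATRA, with 60 fragments against 35 after Corin and 47 after the combination. This gene has near-identical copies elsewhere in the genome, so the placement of its reads is uncertain. The member 969 bases from TVP23B, encoding a Golgi membrane protein, held 31, 38 and 51. Far from DMSO peaks, after ERCC6L2, the strongest members were nearest DIPK2B (chrX:45446232-45447337; 50, 38 and 71 fragments; 59574 bases from a DMSO peak) and SLC5A4, a sodium and glucose transporter family gene (chr22:32265820-32266311; 32, 39 and 44; 59280 bases). Their fold enrichments were 11.7, 8.38 and 8.36 near DIPK2B and 7.58, 8.60 and 7.95 near SLC5A4.

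Many members lay close to chromatin that was already marked in DMSO. The nearest DMSO peak was a median of 6134.5 bases away, with 755 members (18.2%) within 1 kb, 1880 (45.4%, 43.9 to 46.9) within 5 kb and 401 (9.68%) over 50 kb away. Within 5 kb the share was 50.6% for regions of Corin and ATRA+Corin only, 5.24 percentage points above the members (95% Newcombe interval of the member difference -7.20 to -3.27). For ATRA and ATRA+Corin only it was 44.5% (member difference 0.86, -1.47 to 3.18), a difference not detectable at this number of regions. For ATRA+Corin only it was 55.1% (member difference -9.70, -11.4 to -7.97).

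The edge of the rule is given by the gaps. The smallest gap between a member and a DMSO peak was 3 bases, and 37 members had a gap of 100 bases or less. Just outside, the smallest longest overlap of a DMSO peak with a drug peak in a region of all 4 lists was 27 bases, and 8 regions had 100 bases or less. Of all sequence under all 3 drug lists and no DMSO peak, 1.42 Mb (15.5%) lay in members, and 7.73 Mb (84.5%) lay in regions that also held a DMSO peak. For 521 members (12.6%) a neighbouring region on either side was also a member, and at most 4 followed each other.

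**Figure D4:**
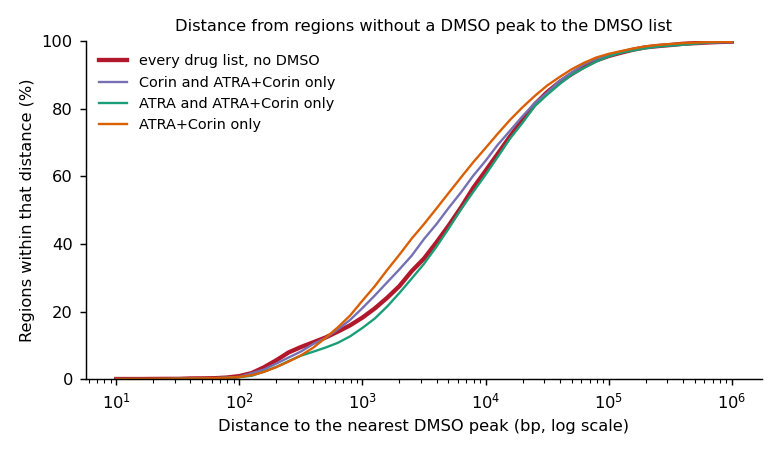
Cumulative share of regions (%) by distance to the nearest DMSO peak (bases, log scale), for the members and for 3 other patterns without a DMSO peak. At 5 kb the members reached 45.4%, near ATRA and ATRA+Corin only at 44.5% and below ATRA+Corin only at 55.1%.

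Members were poorer in GC than the regions of all 4 lists. In a window of 300 bases around the strongest summit, the median GC content was 45.7% against 52.7%, and the ratio of observed to expected CpG was 0.181 against 0.308. Regions of Corin and ATRA+Corin only had 46% GC, of ATRA and ATRA+Corin only 47% and of ATRA+Corin only 46%. The CpG ratios of these patterns were 0.171, 0.174 and 0.168 in the same order. By chromosome, members were spread much as other regions were, with fewer on chromosome 19 (3.14% against 4.36%, difference -1.23, -1.74 to -0.63) and chromosome 16 (2.99% against 3.92%) and more on chromosome 4 (4.37% against 3.60%) and chromosome X (3.74% against 3.15%, difference 0.59, 0.04 to 1.23). The KLF/SP motif GGGCGG, a GC-box, was in 5.26% of member windows and 22.4% of windows in all 4 lists. Its share was 5.70% in Corin and ATRA+Corin only, 6.20% in ATRA and ATRA+Corin only and 5.33% in ATRA+Corin only. A low share was thus not particular to members.

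The IRF motif GAAANNGAA, searched on both strands like the other 12 motifs, was in 582 member windows (14.0%). It was in 8.44% of windows of regions in all 4 lists, a member difference of 5.61 percentage points (4.55 to 6.73). The difference was 3.59 (2.30 to 4.91) from Corin and ATRA+Corin only, with 10.5%, and 2.16 (0.99 to 3.37) from ATRA+Corin only, with 11.9%. From ATRA and ATRA+Corin only, with 13.1%, it was 0.96 (-0.66 to 2.54), an interval that includes 0. Members thus held the motif more often than regions of the Corin pattern and of all lists, while no difference from the ATRA pattern was detectable at this number of regions.

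Base composition moved with this motif. Among windows of 40 to 50% GC the member share was 15.0%, and the difference narrowed to 2.34 (0.73 to 4.06) from all 4 lists but remained 4.38 (2.49 to 6.33) from Corin and ATRA+Corin only. When GAAA and GAA were set 0 to 6 bases apart, the member share was the highest at 2 bases, 14.0%, and 10.2% to 12.5% at the other spacings. Members exceeded the regions of all 4 lists at every spacing, by 3.33 to 5.61 points, so that difference was not limited to the IRF spacing. Against Corin and ATRA+Corin only, the differences at the other spacings ran from -0.24 to 2.63, and at 0, 4, 5 and 6 bases their intervals also lay above 0 and overlapped that at 2 bases, so this difference was not limited to the IRF spacing either.

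**Figure D5:**
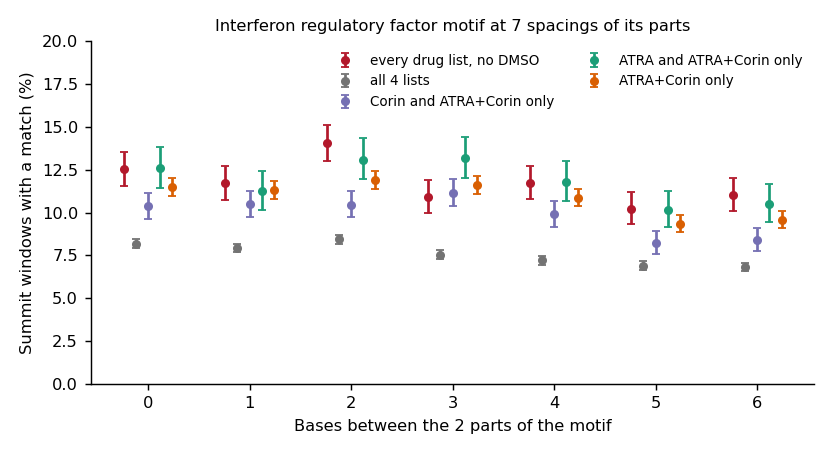
Share of 300-base summit windows (%) in which GAAA and GAA occur at each spacing, for the members and 4 other patterns; points are shares and bars are 95% Wilson intervals. The IRF spacing is 2 bases, where members had 14.0% and regions of Corin and ATRA+Corin only 10.5%.

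The AP-1 motif was less frequent in members than in the Corin pattern, and the PU.1 motif was less frequent than in the ATRA pattern. TGANTCA was in 11.1% of member windows, below the 13.4% of Corin and ATRA+Corin only (difference -2.29, -3.56 to -1.001) and the 16.2% of regions present in all lists but ATRA (-5.12, -7.22 to -3.14). It was above the 9.56% of ATRA and ATRA+Corin only by 1.51 (0.08 to 2.92). GAGGAAGT was in 3.93% of member windows, below the 6.10% of ATRA and ATRA+Corin only (-2.17, -3.23 to -1.15) and not detectably different from the 4.24% of Corin and ATRA+Corin only (-0.31, -1.07 to 0.49). Its share was below the 4.80% of ATRA+Corin only (-0.87, -1.53 to -0.14) and above the 2.99% of regions in all 4 lists (0.94, 0.37 to 1.60). Between 40 and 50% GC the AP-1 difference from Corin and ATRA+Corin only was -2.54 (-4.46 to -0.58), and the PU.1 difference from ATRA and ATRA+Corin only was -2.01 (-3.56 to -0.56). In that band the differences from all 4 lists included 0, at 1.13 (-0.35 to 2.74) for AP-1 and 0.37 (-0.46 to 1.35) for PU.1.

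The motif AATCANNGC of GFI1, a repressor that recruits the LSD1 and CoREST complex, was in 3.91% of member windows against 5.58% of Corin and ATRA+Corin only (-1.67, -2.49 to -0.84). Regions in all 4 lists had 2.93% (member difference 0.98, 0.40 to 1.63). The differences from ATRA and ATRA+Corin only (3.46%; 0.45, -0.45 to 1.32) and ATRA+Corin only (4.31%; -0.40, -1.06 to 0.31) included 0. The half-site AGGTCA of the retinoid receptors was in 24.0% of member windows, 24.0% of Corin and ATRA+Corin only and 25.5% of ATRA and ATRA+Corin only. Its member difference from ATRA and ATRA+Corin only was -1.44 (-3.47 to 0.57). Against regions in all 4 lists, with 20.9%, it was 3.10 (1.77 to 4.48), and 2.07 (0.13 to 4.11) between 40 and 50% GC. Direct repeats of the half-site 5 bases apart, an arrangement bound by retinoic acid receptors, were in 8 members (0.193%) and in 0.0925% of regions in all 4 lists (difference 0.10, -0.00029 to 0.29). They were in 0.330% of ATRA and ATRA+Corin only (member difference -0.14, -0.43 to 0.10). The shares were 0.0809% in Corin and ATRA+Corin only (0.11, -0.03 to 0.31) and 0.130% in ATRA+Corin only (0.06, -0.06 to 0.26). Repeats 2 bases apart, which these receptors also bind, were in 96 members (2.32%) against 1.31% in all 4 lists (difference 1.004, 0.57 to 1.52). The differences from Corin and ATRA+Corin only (0.26, -0.31 to 0.86) and from ATRA and ATRA+Corin only (0.50, -0.18 to 1.16) included 0. So did that from ATRA+Corin only, with 2.39% (-0.07, -0.56 to 0.49), so this arrangement was not particular to members.

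A few genes of the retinoid response had a member nearby. Of all protein-coding genes, 19.7% had a member within 50 kb of the canonical start site; of 16 retinoid response genes, 4 did. TGM2, the retinoid-induced transglutaminase, had 2 members: one 11576 bases upstream (chr20:38176847-38178424) held 54 fragments after ATRA, 31 after Corin and 83 after the combination, and one further upstream held 20, 23 and 58. The local background of the combination was the highest at both. The deposited fold enrichments were 10.4, 4.27 and 6.96 in the first and 4.36, 5.03 and 4.91 in the second. PLAAT4, a retinoid-responsive acyltransferase gene, had one 3370 bases upstream (chr11:63531291-63533437; 36, 26 and 49). DHRS9, a retinol-oxidising dehydrogenase gene, had one at an internal start site (chr2:169080077-169080803; 25, 24 and 34), where the PU.1 match printed above lies. DHRS3, a retinal reductase gene, had one 29485 bases upstream with 18, 35 and 39. Fold enrichments were 4.90, 4.93 and 4.11 in the DHRS9 member and 4.08, 6.54 and 4.68 in the DHRS3 member.

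Of 20 myeloid differentiation genes, 7 had a member. S100A8 had 3 and S100A9 had 2, counting the member over S100A12 for both, in a cluster of calcium-binding proteins of neutrophils and monocytes. The member 7025 bases downstream of the S100A9 start site held 29, 22 and 42 fragments. CD14, the lipopolysaccharide coreceptor gene, had one 43032 bases downstream with 21, 24 and 41 and an IRF match, and ITGB2, an integrin gene of leukocytes, had one 44322 bases upstream with 20, 45 and 53. CSF1R, CD33 and LYZ also had a member within 50 kb.

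Of 10 genes of the NADPH oxidase and granules, 3 had a member, among them CYBB with 2 and NCF1 with 1. CYBB, the catalytic subunit of the oxidase, had one 7475 bases downstream of its start site in an intron (chrX:37787535-37789437; 20, 34 and 36 fragments) and one 31929 bases downstream with 22, 16 and 27 and an IRF match. NCF1 has near-identical pseudogenes, so its member (32, 19 and 45) is uncertain.

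Of 15 chemokine, cytokine and receptor genes, 5 had a member. The member over the start site of CXCL10 (chr4:76023349-76025078) held 24, 31 and 36 fragments and lay 668 bases from a DMSO peak, and its neighbour held 17, 14 and 29. CCL4, a macrophage chemokine, had a member over its start site (chr17:36103129-36104045; 20, 26 and 47), which also lies within 50 kb of CCL3. CCL2, a monocyte chemoattractant, had one 16402 bases upstream with 18, 23 and 36. Of 34 interferon response genes, a list added after the IRF shares were seen, 11 had a member (32.4%, 19.1 to 49.2). The share of all genes, 19.7%, lies within that interval. Among them were OAS1, OAS3, IRF1, IRF9 and GBP2, and CXCL9, CXCL10 and CXCL11 share the same 2 members. Regions of ATRA and ATRA+Corin only were near 10 of the 34 (14.5% of all genes) and those of ATRA+Corin only near 21 (46.0%). Those of Corin and ATRA+Corin only were near 9 (28.5%). A share above that of all genes was thus not particular to members.

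Of 15 genes of phagocyte adhesion, motility and signalling, 5 had a member. C5AR1, the complement C5a receptor, had 2, with 21, 29 and 38 fragments in the gene and 12, 27 and 18 at a distance of 46983 bases. TREM1, an amplifier of inflammatory signals, had one in an intron of the gene with 26, 31 and 52, and ICAM1, a leukocyte adhesion gene, had one with 35, 21 and 44.

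Genes of the targeted complex and of leukaemic stem cells were also represented. Of 10 corepressor and coactivator genes, 5 had a member, but 2 did with a −log10 q of at least 5 in all lists and 1 with that minimum in the drug lists. A minimum in all lists also drops weaker DMSO peaks, so it admits other regions as members. GFI1 had 3 members between 18948 and 24216 bases downstream of its start site, with 41, 25 and 38 fragments in the strongest. KDM1A, the gene of LSD1 itself, had one 3204 bases upstream, over the start site of TEX46 (39, 28 and 58), and the nuclear receptor corepressor gene NCOR1 had one with 17, 29 and 34. At both, the combination had the highest local background and the lowest fold enrichment. The folds were 6.39, 5.28 and 2.64 near KDM1A and 4.18, 6.48 and 2.94 at NCOR1. Of 10 stem and progenitor genes, 5 had a member. The 2 at BCL2 held 35, 32 and 44 and 30, 31 and 29, and each has an AP-1 match. The fold enrichments of the first were 5.02, 4.42 and 3.76. MEIS1, a homeobox gene, had one with 31, 30 and 76, FLT3, a receptor kinase gene of progenitors, one with 23, 28 and 27, and MYB, a transcription factor gene, one with 22, 16 and 23.

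Of 12 neuronal genes bound by the CoREST partner REST, 5 had a member. BDNF, a neurotrophin, had one 300 bases from a start site (chr11:27698693-27699366; 31, 22 and 44), 823 bases from a DMSO peak. GRIN1, a glutamate receptor subunit, had one 20413 bases upstream with 25, 36 and 60, SYP, a synaptic vesicle protein gene, one with 24, 20 and 34 and CHGA, a secretory granule gene, one with 23, 13 and 32. The shares of genes with a member in the 8 lists ran from 25% to 50% against 19.7% of all genes, and the median gene of each list held 0 or 0.5 members. Neighbouring genes share members. Regions of ATRA+Corin only, found near 46.0% of all genes, were likewise near 12 of 16 retinoid, 17 of 20 myeloid, 14 of 15 chemokine and 13 of 15 phagocyte genes. In those lists, shares above that of all genes were thus not particular to members. ATRA+Corin only was also near 8 of 10 corepressor and coactivator, 9 of 10 stem and 5 of 10 oxidase and granule genes. Of the 12 REST genes, ATRA+Corin only was near 5, Corin and ATRA+Corin only near 3 and ATRA and ATRA+Corin only near 0. Of all genes, these patterns were near 46.0%, 28.5% and 14.5%. The list is short, and its difference between patterns was not tested. With a −log10 q of at least 5 in the drug lists, the counts of genes with a member fell to 2 retinoid, 4 myeloid, 3 stem, 3 REST, 3 chemokine and 2 phagocyte genes. With that minimum in all lists, which admits other regions, they were 3 REST, 9 chemokine, 10 phagocyte and 5 oxidase and granule genes.

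Some long genes held several members. Of protein-coding genes 8.57% held a member in the gene body, 336 genes held 2 or more and 3 held 6. These 3 were ARHGAP26, a GTPase-activating protein gene, MAML3, a coactivator gene of Notch, and PLCB1, with bodies of 459, 437 and 808 kb. Of the PLCB1 members, the strongest by the combination lay 16499 bases from the start site (chr20:8093751-8096139) and held 23 fragments after ATRA, 80 after Corin and 132 after the combination. The remaining 5 held 20 to 52 after ATRA and 25 to 66 after the combination. The ARHGAP26 members held 19 to 33, 17 to 36 and 33 to 45 fragments in the order ATRA, Corin and ATRA+Corin, and those of MAML3 held 21 to 29, 17 to 30 and 26 to 45.

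The cell label was checked on markers. A DMSO peak lay within 1 kb of the start site of 9 of 10 monocytic and myeloid markers (not MPO), 1 of 5 T cell, 3 of 5 B cell, 1 of 5 erythroid and 0 of 5 epithelial and liver markers, with the same counts in each drug list. The DMSO list held 65172 peaks, the ATRA list 66385, the Corin list 73997 and that of the combination 83969. With the drug fragments scaled down to the DMSO background, 4092 members reached in all 3 drug lists the lowest −log10 p of the DMSO list, 2.02. This level is low and the scaling small, so nearly all members had to pass, and the part of depth was not tested. A −log10 p of 5 was reached by 1997.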

How the data were processed

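Chromatin immunoprecipitation with an H3K4me2 antibody and paired-end sequencing was done in 8 H3K4me2 and 4 input libraries, per the labels. Trimmomatic, Bowtie2, Picard, MACS2 and the build hg38 are named in the submitters' processing notes, with no version or role. The authors deposited 1 peak list per treatment. The deposited score of a peak equals 10 times its −log10 p, capped at 1000. The fold enrichment over background (a ratio) at the summit and the −log10 p and −log10 q are values of the authors' peak caller. The deposited summit offset, another column of the lists, gave the summit positions.

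Peaks that overlapped or touched were merged. Fold and −log10 p were solved for a whole number of fragments and a background (pseudocount 1, Poisson tail, tolerance 0.001 in −log10 p), which succeeded for 99.8% of DMSO, 97.6% of ATRA, 99.99% of Corin and 99.8% of ATRA+Corin peaks. The depth of each library is not known from peak lists. The scripts were tested on simulated data. Annotation was GENCODE release 44 (basic transcripts, 38726 protein-coding and lncRNA genes; 19951 canonical start sites for gene windows). Distances count the bases between. Shares have 95% Wilson intervals and differences Newcombe intervals. Python 3.11.15, pandas 2.3.3, scipy 1.17.1 and pysam 0.24.0 were used.

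Members were ranked by the lowest of their 3 −log10 q. Named are the first 10, the first 10 within 1 kb of a protein-coding start site, the first 3 over 50 kb from a DMSO peak, the 8 genes with the most members and, per gene list, up to 4 genes with the most members within 50 kb; other genes are given by name only. Some named items are not reported here. The members, the gene lists and the motifs were chosen with earlier results of these data known. Alternatives were stricter −log10 q, other merging, equal list lengths and other windows, with 3 added after the data were seen (scaled depth, a GC band, motif spacing).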

Additional observations from a re-analysis of the deposited data

How the results depend on the processing

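No paired analysis was possible because the replicates of each treatment were pooled into 1 peak list, and for the same reason no replicate could be left out. A −log10 q of at least 5 in all lists also dropped weaker DMSO peaks. It gave 3984 members, many of them regions whose weaker DMSO peak was dropped, and not a subset of the 4144. In that set, the share near start sites was 7.73%, that with a DMSO peak within 5 kb 39.2%, the median GC content 46.3% and the ATRA to Corin summit distance 58 bases. With that minimum in the drug lists only, 1362 members stayed, with 8.66% near start sites, 46.3% GC, a summit distance of 47.5 bases, the AP-1 motif in 9.69%, and 1564 genes, 20 of them in the 8 lists, with a member within 50 kb. Merging peaks within 1 kb gave 5.74% near start sites, 28.3% with a DMSO peak within 5 kb, a summit distance of 79 bases and the IRF motif in 15.2%. Equal list lengths gave a summit distance of 60 bases. Other windows moved values by construction: 11.9% of members lay within 2.5 kb of a start site and 2.20% within 1 kb of a canonical one, a DMSO peak lay within 2 kb of 27.6% and within 20 kb of 76.7%, and gene windows of 10 kb and 100 kb found 939 and 6777 genes (11 listed genes at 10 kb). Summit windows of 200 bases had 47% GC and held the retinoid half-site in 17.2%, PU.1 in 2.00%, AP-1 in 6.76% and IRF in 8.49%. Of the alternatives added after seeing the data, a −log10 p of at least 5 after depth scaling left 1997 members, windows of 40 to 50% GC held AP-1 in 12.5%, and the IRF parts set 0, 1, 3, 4, 5 and 6 bases apart occurred in 12.5%, 11.7%, 10.9%, 11.7%, 10.2% and 11.0%. Of 56 alternative counts for single gene lists, 26 differed by over 1.5 times, and of 63 alternative shares of the other motifs, 13 left the reported interval, among them C/EBP at 4.44% and KLF/SP at 3.94% between 40 and 50% GC. Peak lists show presence at a threshold and not a level in DMSO, and the lack of replicates limits every comparison.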
